A study of Homo sapiens with 3 samples.

Results

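The chromatin around 14 target genes of YAP and TEAD was examined in NCI-H226 cells: CCN1, CCN2, ANKRD1, AMOTL2, AXL, F3, MYOF, CRIM1, LATS2, IGFBP3, NT5E, CCDC80, PTPN14 and TGFB2. All accessibility peaks within 200 kb of the start interval of each gene, as the deposited feature list gives it, were taken, which gave 674 of the 215590 peaks. Each gene had between 30 peaks (ANKRD1) and 63 peaks (CCDC80), and no accessibility or expression value entered the choice of peaks once the genes were listed. The gene list itself was drawn up with earlier results of these data known. The last peak inside the limit lay 199 kb from LATS2 and held counts in 24 cells, and the first outside it lay 200.2 kb from AXL, with 182 cells.

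NCI-H226 is a human mesothelioma line that lacks NF2, and CL3 is 1 clone grown out of it under a TEAD inhibitor, first at 0.25 µM and last at 3 µM, each step adding 0.1 to 0.5 µM. The study challenged both the parental line and CL3 with GNE7883 or with DMSO, marked each condition with hashtag antibodies, pooled the cells and ran the 10x Genomics Multiome assay, which reads RNA and open chromatin from the same cell. The deposited matrix holds genes and peaks but 0 hashtag features, so cells of parental NCI-H226 with DMSO, parental NCI-H226 with GNE7883, CL3 with DMSO and CL3 with GNE7883 could not be told apart. All cells therefore form 1 pooled sample, no condition was compared, and no p-value was computed, because cells are not replicates. The question that could be asked is which peaks go with the RNA of their gene from cell to cell.

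In the Hippo pathway, NF2 promotes the activity of the LATS kinases, which phosphorylate the coactivators YAP and TAZ and keep them out of the nucleus. When NF2 is lost, YAP and TAZ enter the nucleus and bind TEAD transcription factors, which carry them to DNA, largely at enhancers far from gene starts and often beside AP-1 factors. GNE7883 is an inhibitor of the TEAD family that occupies the lipid pocket of the protein and interferes with YAP and TAZ binding. The genes studied here include secreted and matrix proteins (CCN1, CCN2, IGFBP3, CCDC80, TGFB2), proteins of the cell surface (AXL, F3, NT5E, CRIM1), Hippo components that restrain YAP (AMOTL2, LATS2, PTPN14), a nuclear ankyrin-repeat protein of muscle and stretch responses (ANKRD1), and a membrane repair protein (MYOF).

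The promoters of these genes are shown for where the TEAD letters stand before the gene start. The RefSeq promoter table (GRCh38.p14) gave 14 promoters for 12 of the genes, AXL and AMOTL2 with a pair each. CCN1 and CRIM1 had no match in it. The 250 bases before each start were searched on both strands for the TEAD letters GGAATG. Shown are 4 of the 6 promoters that hold them, 5′ to 3′ on the strand of the gene, with GGAATG or its reverse complement CATTCC in capitals: CCN2 (chr6:131951373-131951622, minus strand), ANKRD1 (chr10:90921088-90921337, minus strand), TGFB2 (chr1:218345086-218345335, plus strand) and PTPN14 (chr1:214551603-214551852, minus strand). In the order of the gene, the CCN2 promoter holds the letters 3 times, beginning 169, 104 and 95 bases before the start, all in the forward orientation, and the last 2 copies are 3 bases apart. ANKRD1 holds them at 220 and 128 bases, also forward, while TGFB2 (185 bases) and PTPN14 (200 bases) each hold 1 reverse copy.
CCN2: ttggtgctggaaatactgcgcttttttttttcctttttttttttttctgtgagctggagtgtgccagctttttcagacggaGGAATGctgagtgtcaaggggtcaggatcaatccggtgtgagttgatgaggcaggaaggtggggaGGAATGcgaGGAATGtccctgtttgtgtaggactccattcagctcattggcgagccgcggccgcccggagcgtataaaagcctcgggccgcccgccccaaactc
ANKRD1: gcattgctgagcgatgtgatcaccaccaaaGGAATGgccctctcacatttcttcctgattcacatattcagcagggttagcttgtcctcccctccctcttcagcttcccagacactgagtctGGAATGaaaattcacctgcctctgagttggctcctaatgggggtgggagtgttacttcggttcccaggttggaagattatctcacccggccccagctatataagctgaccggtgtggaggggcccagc
TGFB2: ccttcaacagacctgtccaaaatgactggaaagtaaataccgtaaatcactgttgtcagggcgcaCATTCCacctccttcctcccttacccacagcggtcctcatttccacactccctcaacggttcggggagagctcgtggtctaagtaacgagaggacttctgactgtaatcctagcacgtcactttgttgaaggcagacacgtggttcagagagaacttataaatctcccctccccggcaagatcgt
PTPN14: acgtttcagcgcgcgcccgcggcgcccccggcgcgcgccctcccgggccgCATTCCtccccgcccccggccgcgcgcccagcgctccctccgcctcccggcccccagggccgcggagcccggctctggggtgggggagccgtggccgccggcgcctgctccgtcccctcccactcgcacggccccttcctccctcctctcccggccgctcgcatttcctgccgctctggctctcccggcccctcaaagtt

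The other promoters with the letters were 1 of the pair of AMOTL2 (69 bases before the start) and 1 of the pair of AXL (212 bases), both reverse copies. The TEAD letters stood in 6 of 14 promoters (42.9%), against 11.9% of the 34788 promoters in the table. The AP-1 letters TGANTCA stood in 2 (14.3%, against 6.59%), the SP letters GGGCGG in 8 (57.1%, against 42.6%), and GTAAGG, the TEAD letters read backwards without complement, in 1 (7.14%, against 5.97%). Median GC content was 60.4% in these promoters and 58% in all. A match is a description of the letters, and no genome was used here to read the sequence of the distal peaks. Of the 14 promoters, 13 were overlapped by a peak. For CCN2 and TGFB2 this is not the start peak defined further on but one beside it. The AXL start peak meets only the AXL promoter that holds the TEAD letters, and a different peak overlaps the other promoter of that pair. The promoter without a peak was the other one of AMOTL2, 383 bases from the nearest peak.

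Of 11130 barcodes with at least 1000 unique molecular identifiers (UMIs, counted RNA molecules) and 1000 peak counts, 2217 had over 20% of UMIs from mitochondrial genes, and 8913 cells remained. They held a median of 1524 UMIs (1000 to 13064) and 4034 peak counts (1001 to 59374), with 2097 peaks at 1 count or more. The cells hold 30.4% of all UMIs in the matrix and 41.1% of all peak counts, and doublets were not removed. Mesothelial markers summed to 9856 per 1000000 UMIs (CPM), with all 10 genes detected. KRT18 (4153 CPM), KRT8 (2517) and KRT19 (1742), keratins of simple epithelia in general, made up most of it, beside CALB2 (771), MSLN (79.0) and WT1 (68.4). Of the 8 epithelial and squamous markers, which sum to 1843 CPM, NKX2-1 and SFTPC were at 0 UMIs, EPCAM had 4 and CDH1 13, and KRT7 alone gave 1826 CPM. KRT5 had 263 UMIs (15.9 CPM), TP63 4 and SCGB1A1 3. KRT7 was thus the only abundant gene of this list, and the list does not settle the tissue label of lung epithelium. Immune (8.68 CPM, 2 of 6 at 0) and endothelial markers (19.5 CPM, 0 of 4 at 0) were low, and fibroblast and smooth muscle markers summed to 136 CPM, with COL1A2 at 0, COL1A1 at 108 and ACTA2 at 26.5.

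RNA levels of the 14 genes are given as CPM over all cells with exact Poisson 95% intervals. UMIs count molecules, so no scaling by length was made. CCDC80 (1194 CPM, 1177 to 1211), a matrix-associated secreted protein, CRIM1 (925, 910 to 939), a membrane protein that binds BMPs, and MYOF (508, 498 to 519) were the most abundant. CCN1 (287, 279 to 295), PTPN14 (266, 258 to 274), AXL (114, 109 to 119) and IGFBP3 (111, 106 to 116) followed, with the intervals of the last 2 overlapping. LATS2 (54.9, 51.4 to 58.5), AMOTL2 (46, 42.8 to 49.4), F3 (42.0, 38.9 to 45.2) and NT5E (31.5, 28.9 to 34.4) were lower, with overlapping intervals for AMOTL2 and F3 alone. CCN2 (14.7 CPM, 244 UMIs), ANKRD1 (4.10 CPM, 68 UMIs) and TGFB2 (3.32 CPM, 55 UMIs) were the lowest. In 412679 barcodes with under 100 UMIs, taken as free RNA, the same genes stood at 2.48 CPM (TGFB2) to 766 CPM (CCDC80). The level in cells was 0.552 times (ANKRD1) to 2.05 times (PTPN14) that in free RNA, and CCN1 (267 CPM in free RNA), IGFBP3 (126) and NT5E (39.6) were about as abundant outside cells as within. Mesothelial markers summed to 12396 CPM in free RNA, epithelial and squamous ones to 2384, and fibroblast and smooth muscle ones to 146, all above their sums in cells. Immune and endothelial markers summed to 7.43 each, below theirs in cells. The part of free RNA in the marker levels and in the results below was not tested.

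The gene start peak was defined as the peak overlapping the start interval, or within 1 kb of it, that was open in most cells. A peak is called open in a cell that holds at least 1 count in it. At a median of 4034 peak counts per cell, a cell without a count may hold the peak open but unsampled. Start peaks held a count in a median of 528.5 cells, from 121 (TGFB2) to 950 (AXL), while upstream peaks held one in a median of 49 cells, peaks past the gene's far end in 52, and downstream peaks inside the gene in 86.5. The start peak was picked for its number of cells, so its excess over the other peaks is partly set by the rule. AXL (10.7% of cells, exact 95% interval 10.0 to 11.3), CRIM1 (8.80%) and CCN1 (8.0%) had the most widely open starts. TGFB2, the rarest RNA, had the least open start (1.36%). CCDC80, the most abundant RNA, was at 4.36%, below ANKRD1 (5.19%) and CCN2 (6.13%), which are among the rarest. Over all 674 peaks the median was 58.5 cells (3 to 1761), and 382 (56.7%) were open in at least 50 cells, against a median of 48 and 49.0% of all peaks. The most widely open of them belong to neighbouring genes, such as the peak at SYNCRIP 193 kb downstream of NT5E (1761 cells) and that at HNRNPUL1 36.8 kb downstream of AXL (1271 cells).

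**Figure D1:**
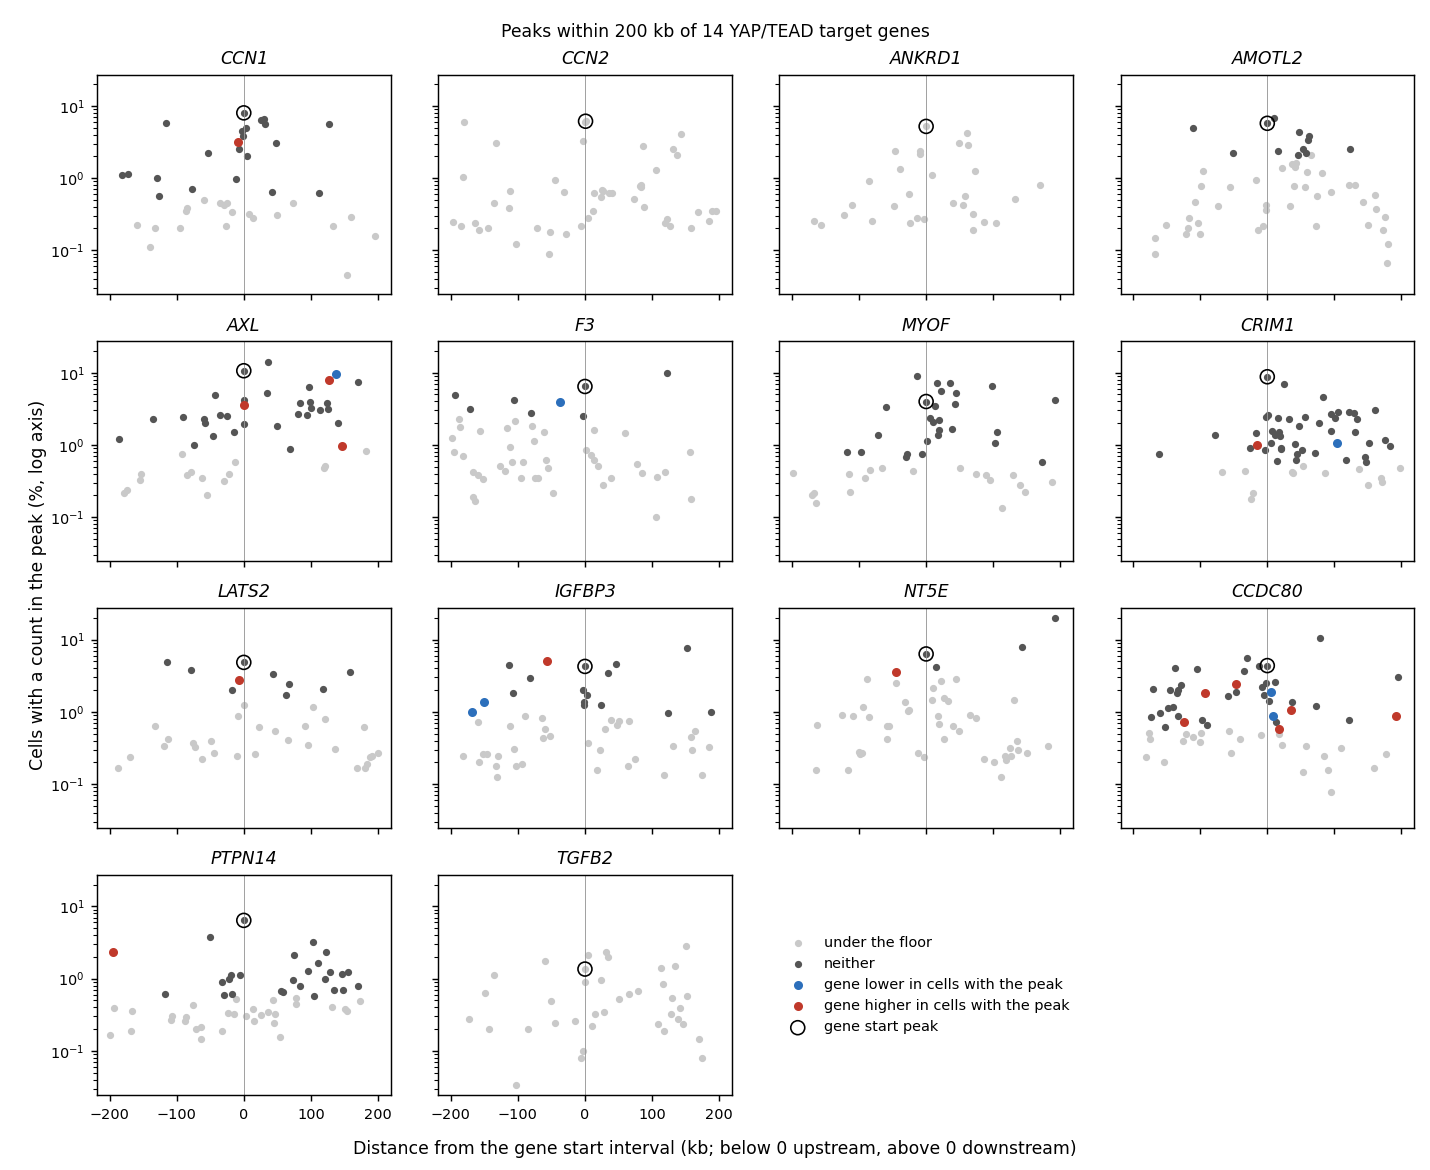
Each panel plots the peaks of 1 gene by distance from its start interval in kb (x axis, below 0 upstream) and by the share of cells with a count (y axis, percent, log scale), with start peaks circled, peaks called higher in red, lower in blue, neither in dark grey and under the floor in light grey. Start peaks lie near the top of their panels, between 1.36% and 10.7% of cells, and no start peak is coloured red or blue. Each was picked as the peak in most cells near the start, so its height is partly set by that choice.

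Each peak was then asked how much RNA of its gene the cells with a count in it carried. The UMIs of the gene per total UMIs in cells with at least 1 count in the peak were divided by the same in cells with none, within 10 equal strata of cells by total peak counts, and a pair was called at 1.2-fold with an exact 95% interval excluding 1. The interval covers counting error only and is not adjusted for the number of pairs. Cells without a count may include cells with the peak open but unsampled, and the part of this in the ratios was not tested. Pairs were measured where the gene had at least 100 UMIs, the peak was open in at least 50 cells and at least 20 UMIs of the gene were expected in those cells. The same pairs were also read the other way, as peak events in cells with and without a UMI of the gene, and without the 8% of cells with the most UMIs. By peak events 6 of the 21 calls that could be measured were kept, and without those cells 7 of 16. For the called peaks, a value or range from either is given where it fell short of 1.2-fold or turned. Other calls that were lost ended through the interval alone or fell under the floor. Without the cells with the most UMIs no value could be measured for the higher peaks of NT5E (1.78), LATS2 (1.65), AXL (1.57) and CCDC80 (1.31). The same holds for the lower IGFBP3 peaks (0.512 and 0.517), the first of which had no value by peak events either. The floor left 246 of the 674 pairs: the 30 pairs of ANKRD1 and the 38 of TGFB2 fell under the gene minimum, and all 48 of CCN2 under the expected UMIs.

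Of the 246 measured pairs, 15 were higher in cells with the peak (6.10%, where 3.58% of all measured pairs of any gene and peak within 200 kb were) and 7 lower (2.85%, where 1.81% were), and 224 were neither. The median ratio was 1.02, against 1.01 over the 105429 pairs of the whole table, and 54.5% of ratios were above 1, against 54.0%. So most peaks around these genes, like most peaks around any gene, showed no difference past 1.2-fold that could be counted at this depth. CCDC80 alone held 6 of the 15 higher calls. Without it, 9 of 206 pairs were higher (4.37%) and 5 lower (2.43%). These genes are also more deeply counted than most, with a median of 132 UMIs expected per pair against 47.4. At 20 to 50 expected UMIs 3 of 61 pairs were higher (4.92%, where 3.50% of all pairs of that depth were), at 50 to 100 it was 1 of 47 (2.13%, where 4.45% were), at 100 to 300 it was 9 of 76 (11.8%, where 3.79% were), and at 300 or more 2 of 62 (3.23%, where 0.668% were), both of CCDC80. The rest of the 6 higher calls of CCDC80 were among the 9 at 100 to 300. Ratios ran from 0.512 to 1.78, inside the range of all pairs, whose highest were those of HMGA2 (3.95) and RSAD2 (3.39). At 1.5-fold, 3 pairs were higher (1.22%, where 0.959% of all pairs were) and 3 lower (1.22%, where 0.947% were), and by the interval alone 28 were higher (11.4%, where 4.59% were) and 11 lower (4.47%, where 2.26% were).

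**Figure D2:**
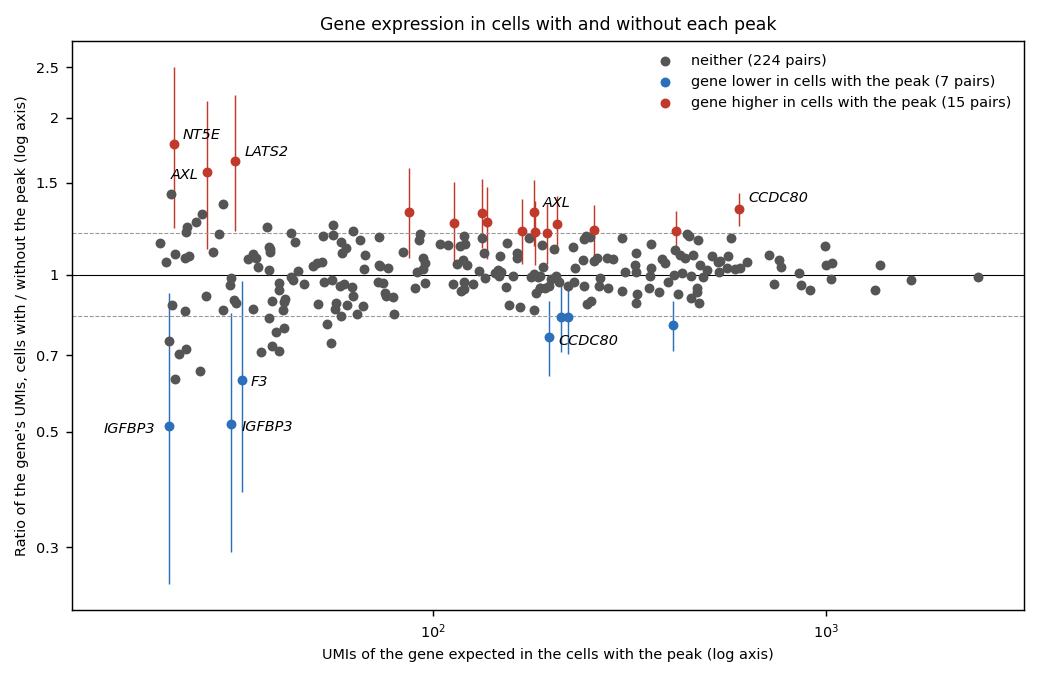
Each point is 1 of the 246 measured pairs, plotted by the UMIs of the gene expected in cells with the peak (x axis, log scale) and the ratio of the gene's UMIs in cells with and without it (y axis, log scale), with exact 95% intervals on the 22 called pairs and dashed lines at 1.2-fold either way. The points gather around 1 and spread at low expected UMIs, where the NT5E pair at 1.78 and the IGFBP3 pair at 0.512 stand, while the CCDC80 pair at 1.34 is the called pair with the most expected UMIs.

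Among the secreted proteins, CCN1, a matricellular integrin ligand and classic YAP target, had 22 measured peaks. One was higher, 8.33 kb upstream and within the span of DDAH1 (chr1:85571582-85572432, 286 cells): 216 UMIs of CCN1 were counted where 181 were expected, 346 CPM against 285 CPM in the cells without it, a ratio of 1.21 (1.04 to 1.38). It was under 1.2-fold without the cells with the most UMIs (1.17) and by peak events (1.15). At the CCN1 start peak (chr1:85580271-85581158, 713 cells) the levels were 290 and 287 CPM, a ratio of 0.995 (0.899 to 1.10). The neighbour DDAH1 had 1.10 there and was not called. Over all peaks of the genome CCN1 was higher with 3.51% and lower with 3.86%, so 1 of 22 lies near its own background.

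CCDC80 had 40 measured peaks, 6 higher and 2 lower, where over all peaks of the genome it was higher with 7.61% and lower with 6.51%. The highest ratio was at a peak 46.6 kb upstream that overlaps no RefSeq gene (chr3:112687944-112688598, 217 cells). There 787 UMIs were counted where 600 were expected, 1558 CPM with and 1182 CPM without the peak, a ratio of 1.34 (1.24 to 1.44) that exceeded those of 98.3% of all 105604 peaks measured with CCDC80. Within chromatin clusters (below) it was 1.19 (1.11 to 1.29), under the 1.2-fold limit. The second, inside the gene 16.9 kb from its start (chr3:112623545-112624416, 51 cells), gave 1558 against 1191 CPM, a ratio of 1.31 (1.12 to 1.52) that turned to 0.932 by peak events. The other 4 higher peaks had ratios of 1.21 to 1.25 and lay 35.4 and 192 kb downstream and 93.2 and 124 kb upstream. The one at 35.4 kb turned to 0.949 without the cells with the most UMIs and to 0.9995 by peak events, and without those cells the other 3 came to 1.11 to 1.19. By peak events the one at 124 kb came to 1.04. Both lower peaks lie inside the gene near its start: 8.04 kb downstream (chr3:112632381-112633230, 78 cells) the levels were 905 and 1197 CPM, a ratio of 0.758 (0.640 to 0.890) that was 0.844 without the cells with the most UMIs and turned to 1.12 by peak events, and 4.95 kb downstream the ratio was 0.799. At the CCDC80 start peak (chr3:112640742-112641637) the ratio was 0.979 (0.917 to 1.04), with 1171 and 1195 CPM.

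IGFBP3, a secreted carrier of insulin-like growth factors, was higher at 1 and lower at 2 of 17 peaks, all 3 upstream. Over the genome it was higher with 8.03% of peaks, the largest such share among these genes, and lower with 5.64%. In the 449 cells with the peak at 56.6 kb (chr7:45977884-45978786), 139 UMIs were counted where 113 were expected, 134 against 110 CPM, a ratio of 1.26 (1.05 to 1.502), or 1.18 by peak events. The lower peaks stood at 168 kb (chr7:46088968-46089799, 88 cells), with 11 UMIs where 21.2 were expected, 56.2 against 112 CPM and a ratio of 0.512 (0.255 to 0.923), and at 150 kb, with a ratio of 0.517. At the IGFBP3 start peak (chr7:45920580-45921487) it was 1.02 (0.822 to 1.26), with 112 and 111 CPM. No other gene within 200 kb could be measured at these peaks.

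CCN2, also a matricellular protein and with CCN1 the most used readout of YAP activity, could not be measured at any single peak. Its start region holds a peak over the promoter shown above (chr6:131950993-131951830, 525 cells, 20 UMIs where 17.3 were expected) and one 0.876 kb downstream inside the gene that was open in slightly more cells (chr6:131949636-131950495, 546 cells, 14 where 17.7 were expected). These ratios, 1.18 (0.699 to 1.89) and 0.774 (0.412 to 1.34), are under the floor and their intervals span both directions. Over the genome 6635 peaks reached the floor with CCN2, 1.64% of them higher and 3.29% lower. For TGFB2, a ligand of the TGF-beta receptors, 3 UMIs fell in the 121 cells with its start peak (chr1:218345555-218346175), and for ANKRD1, 5 fell in the 463 cells with its start peak (chr10:90920932-90921819). No ratio was computed for them.

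Of the cell surface proteins, AXL, a receptor tyrosine kinase, had 3 higher and 1 lower of 33 peaks, where over the genome it was higher with 4.32% and lower with 3.20% of peaks. The largest ratio was 147 kb downstream, in TMEM91 (chr19:41373721-41374622, 85 cells): 41 UMIs where 26.6 were expected, 182 against 113 CPM, a ratio of 1.57 (1.12 to 2.15). This pair fell under the floor without the cells with the most UMIs. The next was inside the AXL start interval (chr19:41223346-41224215, 319 cells), with 112 UMIs where 86.9 were expected, 150 against 112 CPM and a ratio of 1.32 (1.08 to 1.60), or 1.12 by peak events. The deposited interval of AXL spans both annotated starts, and this peak lies between them. A peak 127 kb downstream across B9D2 and TGFB1 (chr19:41353500-41354420) also gave 1.32 (1.13 to 1.52), but there the neighbour BCKDHA, an enzyme of branched-chain amino acid breakdown, had the larger ratio of 1.34, which was not called with 35 UMIs. The peak 137 kb downstream (chr19:41363664-41364559, 847 cells) was lower, 99.7 against 116 CPM, a ratio of 0.829 (0.705 to 0.969) that was 0.861 without the cells with the most UMIs and turned to 1.26 in the cells with at most 10% mitochondrial UMIs. There EXOSC5, a subunit of the RNA exosome, had 1.12. The AXL start peak (chr19:41225717-41226605, 950 cells) had 133 against 111 CPM, a ratio of 1.19 (1.03 to 1.36) whose interval lies above 1 but which does not reach 1.2-fold.

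NT5E, the ecto-nucleotidase CD73, gave the largest ratio of all 246 pairs. In the 318 cells with a peak 44.2 kb upstream in LINC02535 (chr6:85404469-85405335), 37 UMIs were counted where 21.9 were expected, 53.5 against 30.6 CPM, a ratio of 1.78 (1.23 to 2.51). It exceeded the ratios of 99.8% of the 22376 peaks measured with NT5E anywhere in the genome, of which 4.81% were higher and 1.75% lower. The neighbour SNX14 at the same peak had 85 UMIs where 80.5 were expected. Without the cells with the most UMIs the NT5E pair fell under the floor. Only 5 NT5E peaks could be measured, and at its start peak (chr6:85449560-85450474, 564 cells) the ratio was 1.11 (0.781 to 1.53), with 34.4 and 31.3 CPM.

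F3, or tissue factor, the trigger of blood clotting, had 0 higher and 1 lower of 8 peaks, where over the genome 3.34% were higher and 3.10% lower. With the peak 37.9 kb upstream (chr1:94579650-94580519, 354 cells), 21 UMIs were counted where 32.6 were expected, 26.6 against 42.7 CPM, a ratio of 0.627 (0.384 to 0.971). ABCD3, a peroxisomal transporter, had 0.792 there. The F3 start peak (chr1:94541416-94542318, 575 cells) stood at 48.0 against 41.5 CPM, a ratio of 1.19 (0.891 to 1.56).

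CRIM1 had the most measured pairs, 45, with 1 higher and 1 lower (1.90% and 2.49% over the genome). The higher peak lay 15.3 kb upstream in no RefSeq gene (chr2:36339662-36340463, 89 cells), with 1126 against 922 CPM and a ratio of 1.201 (1.05 to 1.37). The lower lay inside the gene, 104 kb from its start (chr2:36459508-36460352, 96 cells), with 787 against 927 CPM and a ratio of 0.829 (0.710 to 0.963), or 0.846 by peak events. At the CRIM1 start peak (chr2:36355316-36356197, 784 cells), where 1610 UMIs were counted, the levels were 925 and 925 CPM and the ratio 0.976 (0.925 to 1.03), the narrowest interval of any start peak. A ratio of 1.2 between cells with and without a count there lies outside it, but the interval covers counting error only.

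Of the Hippo components, LATS2, the kinase that phosphorylates YAP and is itself a YAP target, had 1 higher of 10 peaks, 7.73 kb upstream in LOC105370104 (chr13:21069320-21070221, 242 cells). There 50 UMIs were counted where 31.3 were expected, 88.3 against 53.7 CPM, a ratio of 1.65 (1.21 to 2.21), which exceeded 99.9% of the 41173 peaks measured with LATS2, 2.43% of them higher and 1.57% lower. The neighbour MRPL57 had 1.35 there, with 27 UMIs, and was not called. Without the cells with the most UMIs the LATS2 pair fell under the floor. In cells with at least 2000 UMIs and peak counts its ratio was 1.30. At the LATS2 start peak (chr13:21061156-21062012, 431 cells), 58.1 against 54.7 CPM gave a ratio of 1.05 (0.778 to 1.40), while its neighbour SAP18, a histone deacetylase complex subunit, had 1.24 without being called.

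PTPN14, a phosphatase that binds and restrains YAP, had 1 higher of 27 peaks (over the genome 3.77% were higher and 2.39% lower), the farthest of all called peaks, 195 kb upstream in no RefSeq gene (chr1:214746885-214747810, 211 cells). There 170 UMIs were counted where 137 were expected, 347 against 264 CPM, a ratio of 1.26 (1.07 to 1.47), while the neighbour CENPF, a centromere protein, had 1.01. Without the cells with the most UMIs the PTPN14 ratio was 1.02, and by peak events 1.06. The PTPN14 start peak (chr1:214551342-214552222, 572 cells) gave 313 against 262 CPM, a ratio of 1.15 (1.03 to 1.27) above 1 but under 1.2-fold. CENPF had 1.16 there. AMOTL2, an angiomotin-like protein that holds YAP at junctions, had 0 calls among 12 peaks (over the genome 1.86% were higher and 2.92% lower). Its start peak (chr3:134374213-134375034, 511 cells) gave 41.7 against 46.3 CPM, a ratio of 0.858 (0.623 to 1.15). The neighbour RYK, a Wnt receptor, had 1.03. MYOF, for which 27 peaks were measured, also had 0 calls (3.09% and 2.59% over the genome), with ratios from 0.865 to 1.16 and 483 against 510 CPM at its start peak (chr10:93482067-93482960, 356 cells), a ratio of 0.917 (0.824 to 1.02).

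Of 11 measured start peaks 0 were higher (3.44% of all 6956 start peaks were) and 0 lower (1.09% were), counts too small to stand apart from that background, with ratios from 0.858 to 1.19. Their median was 1.02, as over all start peaks. By distance, 4 of 53 pairs within 20 kb were higher (7.55%, against 3.82% of all pairs at that distance), 3 of 45 at 20 to 50 kb (6.67%, against 3.67%), 2 of 48 at 50 to 100 kb (4.17%, against 3.29%) and 5 of 86 at 100 to 200 kb (5.81%, against 3.30%). In the same order, 2 of 53 were lower (3.77%, against 1.74%), 1 of 45 (2.22%, against 1.91%), 0 of 48 (against 1.89%) and 4 of 86 (4.65%, against 1.82%). Of 14 measured pairs whose peak overlaps the start interval, 1 was higher (7.14%, against 4.93%) and 0 lower (against 1.56%). The counts are small, and the bin with the most pairs holds the most calls.

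Several of these peaks lie in or beside other genes, so the same ratio was computed for every neighbour within 200 kb. Of 127 measured peaks with a measured neighbour, the target gene had the largest ratio at 48 (37.8%). The median was 1 neighbour per peak, so a first rank is common by number alone. No such share was computed over other genes, so this one cannot be read as a trait of the target genes. At the 8 called higher that had such a neighbour it was first at 7, the exception being the AXL peak at TGFB1, and at the 2 called lower it was first at 0. The calls themselves favour a high rank when higher and a low one when lower, so these last counts describe and test nothing.

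Whether distal peaks open in the same cells as the start peak was read from chromatin alone, as cells open at both over the number expected in the strata, with an exact Poisson interval, for peaks at least 2 kb apart. Of 111 measured peaks, 5 were higher (4.50%, where 2.85% of all pairs were) and 2 lower (1.80%, where 0.266% were), with a median ratio of 1.05 against 1.06. AMOTL2 opened with a peak inside the gene 9.63 kb from its start (chr3:134363910-134364817): 69 cells held both where 51.9 were expected, a ratio of 1.33 (1.03 to 1.68). IGFBP3 did so with a peak 113 kb upstream (chr7:46034046-46034967), 39 cells where 26.1 were expected, 1.49 (1.06 to 2.04). AXL did so with 3 peaks 96.5, 124 and 170 kb downstream, at ratios of 1.23 to 1.28. A MYOF peak inside the gene, 42.8 kb from its start, was found with its start peak in 11 cells where 20.9 were expected (0.526, 0.263 to 0.941), and a CCDC80 peak 137 kb upstream in 15 where 26.3 were expected (0.571, 0.320 to 0.942). None of these 7 peaks was among the 22 called with the RNA. At 1.5-fold 0 were higher (0.437% of all pairs were). Within chromatin clusters, 17 of 102 were higher (16.7%, where 14.9% were) and 0 lower (0.0458% were), with a median ratio of 1.15 against 1.16. Each cluster there was split into 3 strata by peak counts instead of the 10 used for all cells. The rise was as large over all pairs, and the part of the coarser strata in it was not tested.

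Because no CCN2 pair could be measured, all peaks of a gene were also pooled, a comparison added after the data were seen. Cells with a count in any peak of the gene, 32.6% of cells for LATS2 to 62.8% for AXL, were compared with cells with none. Of 12 genes with at least 100 UMIs, 0 were higher (2.86% of 10195 genes were) and 0 lower (1.17% were). CCN2 gave 0.979 (0.727 to 1.31). The intervals of IGFBP3 (1.12, 1.01 to 1.24), CCN1 (1.08, 1.01 to 1.15), CCDC80 (1.05, 1.02 to 1.08) and CRIM1 (1.04, 1.003 to 1.08) lay above 1, under 1.2-fold. Those of MYOF (0.981, 0.934 to 1.03) and PTPN14 (0.988, 0.922 to 1.06) were narrow around 1. Within chromatin clusters the intervals of CCN1 and CRIM1 stayed above 1 (1.09 and 1.04), and those of IGFBP3 (1.07, 0.968 to 1.19) and CCDC80 (1.02, 0.992 to 1.06) included it.

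**Figure D3:**
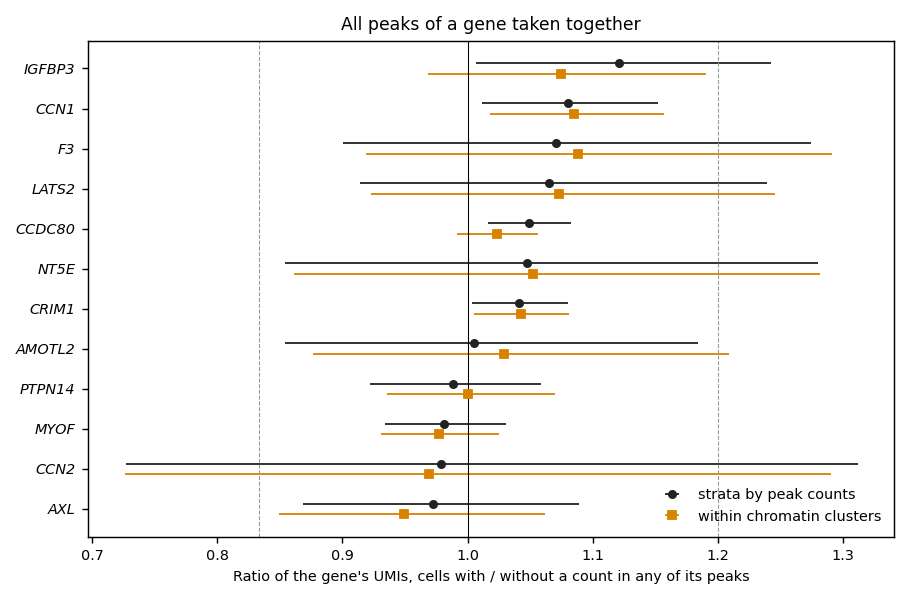
For each of 12 genes (y axis) the x axis gives the ratio of its UMIs in cells with and without a count in any of its peaks, with exact 95% intervals, in strata by peak counts (circles) and within chromatin clusters (squares), and dashed lines at 1.2-fold. All points lie between the dashed lines, from 0.972 for AXL to 1.12 for IGFBP3 in the strata by peak counts, with the widest interval for CCN2.

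Cells were also clustered on all peaks but the 674. This gave 5 clusters of 690 to 2574 cells and 1 of 108 cells, left out of what follows. The clusters are not conditions and were not matched to the lines or treatments. Median peak counts per cell ran from 3711 in cluster 1 to 4384 in cluster 5, and median UMIs from 1456 in cluster 4 to 1665 in cluster 3. For all 12 genes with at least 100 UMIs the exact intervals of the highest and the lowest cluster did not overlap (37.8% of 10306 genes were so), at a median of 1.80-fold, from 1.197-fold (PTPN14) to 3.70-fold (NT5E), against 1.47-fold over all genes. Summed over all peaks of the gene, 8 of 12 did not overlap (71.6% of all genes were so), at a median of 1.16-fold, against 1.18-fold. At start peaks 2 of 12 did not, AXL and NT5E (23.5% were so), at 1.44-fold against 1.36-fold. Highest and lowest were picked from the values, so these folds describe the range only, and they are larger where counts are few. Intervals narrow as counts grow, so the share that does not overlap depends on depth. PTPN14, with 4413 UMIs, is counted at 1.197-fold. No share over genes of equal depth was computed, so the 12 of 12 cannot be read as a trait of these genes.

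NT5E stood at 48.6 CPM in cluster 1 and 13.1 in cluster 4, and CCN2 at 26.1 in cluster 5 and 7.86 in cluster 2. Over the 5 clusters the events summed over all peaks of CCN2 ran from 169 to 197 per 1000000 and their intervals overlapped. F3 (62.0 in cluster 3, 22.8 in cluster 2) also had summed events within 1.07-fold. CCDC80 and its peak 46.6 kb upstream both were highest in cluster 3 and lowest in cluster 1: 1776 against 906 CPM for the gene, and 14.2 against 4.59 events per 1000000 for the peak. Cluster 5 broke the match, with the gene second highest (1612 CPM) and the peak second lowest (6.33 events). IGFBP3 (187 CPM in cluster 3, 78.8 in cluster 4) and its peak 56.6 kb upstream (21.5 events per 1000000 in cluster 3, 13.6 in cluster 2) shared the highest cluster only. AXL stood at 139 CPM in cluster 3, 138 in cluster 1 and 138 in cluster 5, which overlap, and was lowest in cluster 4 (74.5), and its peak inside the start interval was highest in cluster 3 as well (17.7 events per 1000000) but lowest in cluster 2 (7.84). The ANKRD1 start peak, over the promoter shown above, had 26.02 events per 1000000 in cluster 3 and 13.4 in cluster 4, with intervals that do not overlap, while the 68 UMIs of the gene gave 7.72 and 2.39 CPM there with intervals that do.

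**Figure D4:**
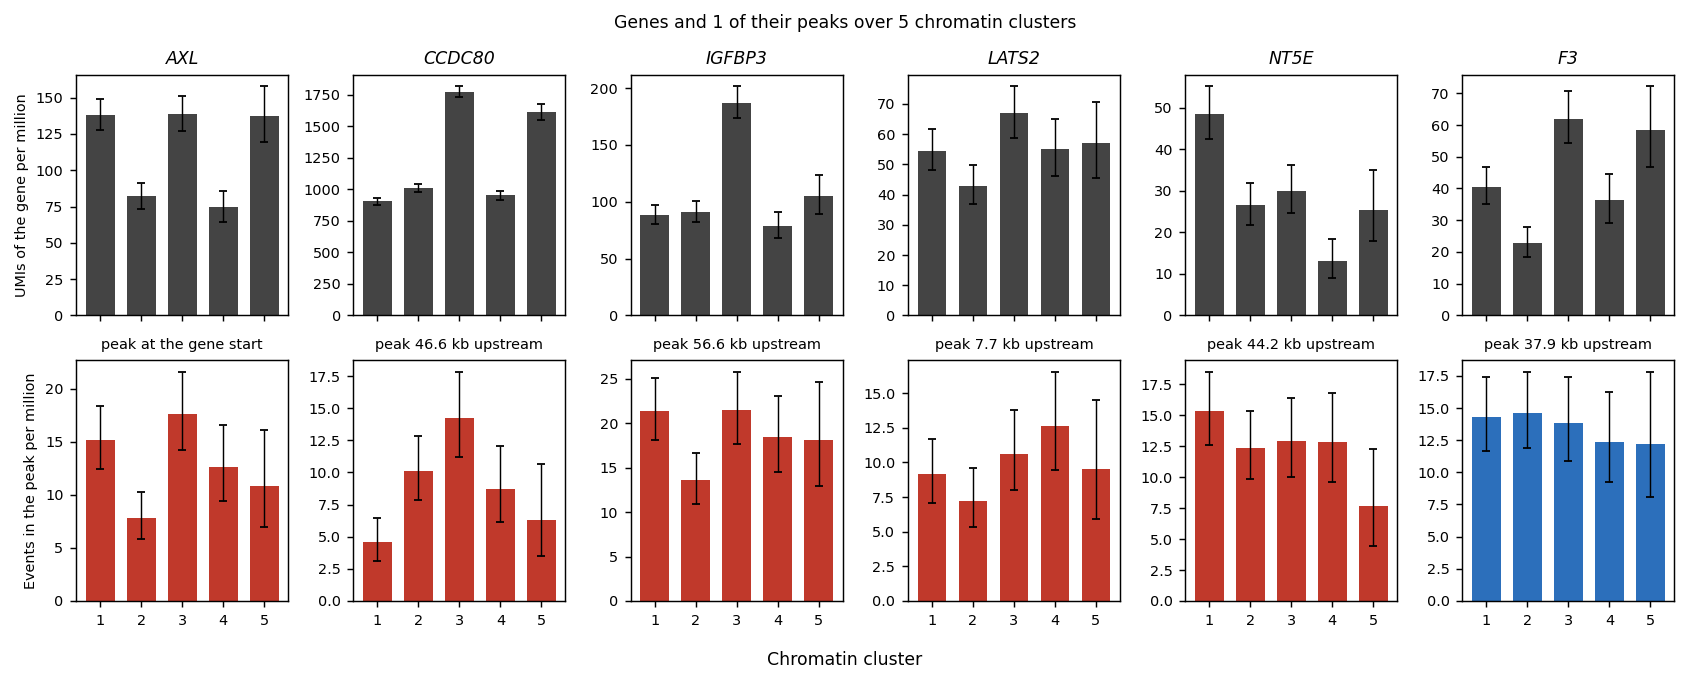
The upper row gives UMIs of 6 genes per 1000000 and the lower row the events in 1 called peak of each per 1000000, over 5 chromatin clusters (x axis), red for peaks called higher and blue for lower, with exact Poisson 95% intervals as error bars. CCDC80 and its peak share the highest and the lowest cluster, 1776 CPM and 14.2 events per 1000000 in cluster 3 and 906 and 4.59 in cluster 1, while F3 differs 2.72-fold between clusters and its peak 1.197-fold with overlapping intervals.

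With the clusters as strata, and 3 strata by peak counts in each, 12 of 247 pairs were higher (4.86%, where 3.19% of all pairs were) and 5 lower (2.02%, where 1.83% were). Of the 22 calls, 21 could be measured, 14 were kept and 0 turned, and the IGFBP3 peak 168 kb upstream fell under the floor. The LATS2 peak (1.61, 1.18 to 2.15), the NT5E peak (1.75, 1.21 to 2.45), all 3 AXL peaks (1.25, 1.25 and 1.64), the CCN1 peak (1.21, 1.05 to 1.39) and the PTPN14 peak (1.25, 1.06 to 1.46) were among them. Of the 6 CCDC80 peaks called higher, 2 were kept (1.23 and 1.24), and the CRIM1 peak came to 1.15 (1.002 to 1.31). Both lower CCDC80 peaks remained lower (0.739 and 0.826), as did the F3 peak (0.640).

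Other gene lists give the scale of these counts. Around 12 further YAP/TEAD targets, 14 of 254 measured pairs were higher (5.51%, where 3.58% of all pairs were) and 9 lower (3.54%, where 1.81% were), 6 of the higher at GADD45A, a stress-response gene, whose highest ratio was 2.30. Around the TEAD factors and their cofactors, 5 of 152 were higher (3.29%) and 1 lower, 2 of the higher at TEAD1, and around 13 MAPK output genes 3 of 49 were higher (6.12%) and 0 lower. The median ratio was 1.02 in each of the first 2 lists and 1.07 in the third. Differences between lists were not tested.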

How the data were processed

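One pool gave 3 libraries (gene expression, accessibility, hashtags), and the 1 matrix deposited for it was used. Per the file headers it was made with Cell Ranger ARC 2.0.0 and holds raw whole-number counts, UMIs for genes and transposition counts for peaks, with no normalisation and no filter to cells. The submitters' processing notes list MACS2, ArchR 1.0.3, the build GRCh38.p10 and, besides Cell Ranger ARC, Cell Ranger 2.0.0, with no roles. The settings of the peak calling are not given in the sources used here. Of peak entries 88.0% were even, so 2 counts were taken as 1 event. No per-sample column was left unused.

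Ratios are Mantel-Haenszel rate ratios with exact conditional binomial intervals, fitted over all 464539 pairs within 200 kb. The computation was checked on UMIs simulated by Poisson counting from the stratum rates. Such data hold no further variation between cells, so that check does not cover it. Intervals on shares of cells are Clopper-Pearson 95%. Clusters used 181586 peaks in at least 20 cells, 29 of 30 components after removing those correlated over 0.75 with depth, 15 neighbours and Leiden resolution 0.5 (leidenalg 0.10.2, scikit-learn 1.9.0, SciPy 1.17.1). Positions and promoters come from RefSeq GRCh38.p14 tables, whose starts fell inside the deposited interval for 12 of 14 genes (ANKRD1 189 and CCDC80 126 bases off). Named per gene are the start peak, the 2 highest called peaks and the lowest called one. The neighbour with the largest ratio there is named where that ratio exceeds the gene's own. Other peaks and neighbours named were chosen after their values were seen. Genes and lists were chosen with earlier results of these data known. Doublets were not removed, and the planned motif search of the peaks was not run because no genome was used here.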

Additional observations from a re-analysis of the deposited data

How the results depend on the processing

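The counts of 15 higher and 7 lower pairs stayed within 1.5 times without strata, in 25 strata, within chromatin clusters and with UMIs scaled outside mitochondrial genes, where 14 to 19 of the 22 calls were kept. Fewer pairs could be measured in several alternatives. With at most 10% mitochondrial UMIs (1592 cells, 31 pairs) 1 was higher and 2 lower, at a median log2 ratio of 0.11 instead of 0.025, and with a peak called open at 3 or more counts (8 pairs) 0 and 0, at 0.16. Lower pairs were 4 of 150 in cells with 2000 or more of both counts and 4 of 199 without the 8% of cells with the most UMIs, where 7 of 16 calls still measured were kept. With peaks in at least 200 cells 8 of 116 were higher and 2 lower, and within 100 kb 3 of 160 were lower. With no floor 38 of 598 were higher (6.35%, near the 6.10% of the main setting). Comparing peak events between cells with and without a UMI of the gene left 9 of 236 higher and kept 6 of 21 calls. The cause was not tested. Shares over all pairs were computed only for the main setting, within chromatin clusters, at 1.5-fold and by the interval alone. At 1.5-fold 3 were higher (0.959% of all pairs) and 3 lower (0.947%), and by the interval alone 28 (4.59%) and 11 (2.26%).

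Of the called ratios, 4 turned, 1 of them in 2 alternatives: the AXL peak 137 kb downstream to 1.26 at 10% mitochondrial UMIs, the CCDC80 peak 35.4 kb downstream to 0.949 without the cells with the most UMIs and to 0.9995 by peak events, and by peak events the CCDC80 peaks 16.9 kb (0.932) and 8.04 kb (1.12) downstream. The cause was not tested. Peaks opening with the start peak were 17 of 102 within clusters (where 14.9% of all were), 0 with at most 10% mitochondrial UMIs, where 1 peak could be measured, 3 of 76 without the cells with the most UMIs and 0 of 111 at 1.5-fold (0.437%). No paired analysis was possible because all cells form 1 pooled sample. The motif search in peak windows of other sizes was not run.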
